A study of Mus musculus with 2 samples.

Results

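The genes described here are the translation initiation factors (Eif genes) and elongation factors (Eef genes) of the mouse, followed through bone marrow progenitors with and without a conditional knockout of Nat10. They were chosen by symbol: Eif or Eef and a digit, without the Eif2ak kinases, the Eif4ebp genes, the Eef1akmt genes, Eef2k and pseudogenes marked -ps, and with at least 50 unique molecular identifiers (UMIs, each standing for 1 captured transcript) over both libraries. Of 56748 features, 76 rows matched the name rule and 53 passed the floor. Of the 23 rows under the floor 16 had 0 UMIs, among them Eef1a2, the elongation factor 1A paralog of muscle and neurons, and Eif4e1b, the germline relative of the cap-binding protein. The other 7 had up to 9 UMIs. The most counted row under the floor was Eif2s3y, the Y-linked copy of the eIF2 gamma subunit, with 0 UMIs in the cKO and 9 in the WT library. The least counted factor was Eif5a2, far above the floor with 557 UMIs in the cKO and 743 in the WT library. The symbol rule also took in Eef1aknmt, which encodes a methyltransferase of elongation factor 1A and not an elongation factor.

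The groups were 1 library of lineage-negative bone marrow cells from Nat10 cKO mice and 1 library of the same kind from wild-type (WT) mice, both on the C57BL/6 strain. Age, sex, the Cre driver and the deleted part of Nat10 are not in the labels, and although the series text speaks of 5 independent WT or cKO mice, no label ties a cell to a mouse. Mature cells were removed with a kit of lineage antibodies, and 3′ ends of transcripts were counted in droplets. The series asks about N4-acetylcytidine, the RNA modification laid down by the Nat10 enzyme, in haematopoietic stem cell maintenance and differentiation. Each genotype has a single library, so the genotypes cannot be tested against each other, the differences lack any check by replicates, and the 95% intervals in brackets stand for counting error alone.

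After filters and doublet removal 10695 cKO cells with 253860830 UMIs (median 21450 per cell) and 11945 WT cells with 262788089 UMIs (median 18315) were kept. Cells under 3000 UMIs made up 17.2% of kept cKO and 25.2% of kept WT cells, and 40 barcodes that passed the filters were found in both libraries. Clusters were named from marker genes, each name ending in "-like", and the 11 classes that reached 100 cells in each library are described. Against the lineage-negative label, 343 cKO and 323 WT cells were T/NK-like and 698 cKO and 1050 WT cells erythroblast-like, while 2798 cKO and 3391 WT cells stayed unnamed. Levels are CPM, UMIs of a gene scaled to a fixed total of the library or class, and ratios are log2 of cKO over WT. Nat10 itself had 38.7 CPM in the cKO library and 47.0 CPM in the WT library, a log2 ratio of −0.28 (−0.32 to −0.24). It was lower in all 11 classes, with intervals that held 0 in erythroblast-like and stromal/endothelial-like cells. The deleted part is not in the labels, and a 3′ count outside it would not show the deletion. How complete the deletion was in these cells was not tested.

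Initiation begins when eIF1, eIF1A, eIF3 and eIF5 bind the small ribosomal subunit together with eIF2, which carries the initiator tRNA and is recharged with GTP by eIF2B. The eIF4 group brings in the mRNA: eIF4E holds the cap, eIF4G is the scaffold, and eIF4A unwinds the leader with the help of eIF4B and eIF4H. In elongation eEF1A delivers aminoacyl-tRNA, the eEF1B subunits recharge eEF1A, eEF2 moves the ribosome along, and eIF5A, which carries the amino acid hypusine, helps at difficult peptide bonds. Haematopoietic stem cells are known for a low and tightly held rate of protein synthesis.

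Over all kept cells the factors as a group took 2.03% of UMIs in the cKO library and 1.79% in the WT library. The ratio was above 0 for 43 of the 53 and below 0 for 10, with a median of 0.16 (quartiles 0.05 and 0.27), against a median of −0.11 over all 21256 features with at least 50 UMIs. A ratio of at least 0.3 in either direction is named called higher or called lower below, a description of size with no test behind it, while above 0 and below 0 give the sign alone. By that rule 11 factors were called higher, 20.8% of them, against 14.8% of all features, and 2 were called lower, 3.77% against 29.2%. Scaling by trimmed mean of M values (TMM) in place of total UMIs moved every ratio up by 0.097. The median then stood at 0.26, 25 factors were called higher against 20.9% of all features and 1 lower against 22.1%, and 47 were above 0. The same offset moved every feature, so the median of all features became −0.01. Ribosomal protein genes took 21.0% of UMIs in the cKO library and 18.1% in the WT library, and their part in these ratios was not tested.

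The mix of cells differed between the libraries, with 2701 erythroid progenitor-like cells in the cKO and 1735 in the WT library, and these cells hold high levels of most of the factors. With the cKO cells weighted to the WT mix of clusters the median was 0.10, with 7 factors called higher and 1 lower against 10.9% and 23.2% of all features. The ratios over all cells below are therefore read beside those within classes.

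**Figure D1:**
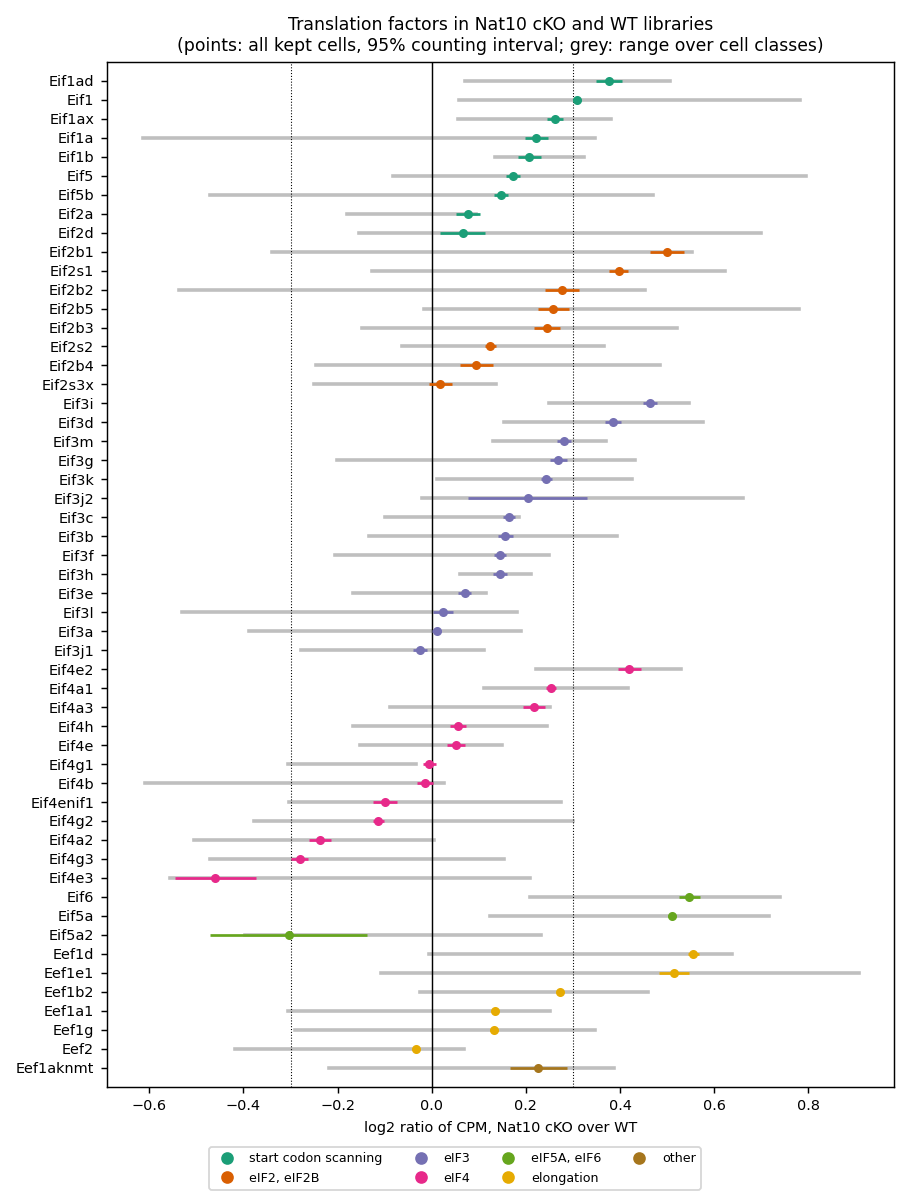
Log2 ratio of CPM, Nat10 cKO over WT (x axis), for the 53 translation factor genes (y axis), grouped by role; points are all kept cells with 95% counting intervals, grey bars span the lowest to the highest ratio over the measured cell classes, and dotted lines mark 0.3 either way. The eIF2/eIF2B points all lie above 0, the eIF4 points lie on both sides, and Eef1d, Eif6 and Eef1e1 are the highest.

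Genes of the elongation group were among those with the largest differences. Eef1d, a guanine nucleotide exchange subunit for eEF1A, had 560.0 CPM in the cKO library and 381 CPM in the WT library, a log2 ratio of 0.56 (0.54 to 0.57). Eef1e1, a small eEF1-related protein held in the multi-tRNA synthetase complex, had 75.3 CPM in the cKO library and 52.7 CPM in the WT library, a ratio of 0.52 (0.48 to 0.55), and at the WT mix of clusters its ratio was 0.33. Both genes were thus called higher over all cells, and Eef1d was above 0 in 10 of 11 classes with stromal/endothelial-like cells at −0.01, and Eef1e1 in 10 with the same exception.

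The other genes of the elongation group differed less. Eef1a1, which encodes the elongation factor that brings tRNA and is the most counted gene of the group, had 4028 CPM in the cKO library and 3670.2 CPM in the WT library, a ratio of 0.13 (0.13 to 0.14). Eef1b2 and Eef1g, the other exchange complex subunits, had ratios of 0.27 and 0.13. Eef2, the translocase, stood apart with 987 CPM in the cKO library and 1011 CPM in the WT library, a ratio of −0.03 (−0.04 to −0.03). Eef2 was below 0 in 10 of 11 classes on total UMIs, by small amounts in most of them, but in 7 of 11 with TMM scaling. Over the 6 genes of the elongation group, Eef1e1 among them, 5 were above 0 and the median was 0.20.

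The hypusine factor and the anti-association factor were also high in the cKO library. Eif5a had 1167 CPM in the cKO and 819.8 CPM in the WT library, a ratio of 0.51 (0.50 to 0.52). Eif6, which keeps the large ribosomal subunit from joining the small one too early, had 151 CPM in the cKO library and 103 CPM in the WT library, a ratio of 0.55 (0.52 to 0.57). Eif5a and Eif6 were above 0 in all 11 classes, each by at least 0.3 in 10 of them. Eif5a2, the rarely counted second eIF5A gene, went the other way over all cells with 2.08 CPM in the cKO library and 2.57 CPM in the WT library, a ratio of −0.30 (−0.47 to −0.14), but only 4 classes held at least 50 of its UMIs and 2 of these were above 0.

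All 8 genes of eIF2 and its exchange factor eIF2B were above 0, with a median of 0.25. Eif2b1, the alpha subunit of eIF2B through which phosphorylated eIF2 is sensed, had 57.2 CPM in the cKO library and 40.5 CPM in the WT library, a ratio of 0.50 (0.46 to 0.54), which was 0.27 at the WT mix of clusters. Eif2s1, the eIF2 alpha subunit that stress kinases phosphorylate, had 191 CPM in the cKO library and 145 CPM in the WT library, a ratio of 0.40 (0.38 to 0.42). The 2 genes were the members of this complex past 0.3. The catalytic eIF2B subunit Eif2b5 had a ratio of 0.26, while Eif2s3x, the X-linked eIF2 gamma subunit, was near 0 at 0.02 (−0.01 to 0.04). Within eIF2 the ratios thus ran from near 0 for Eif2s3x to 0.40 for Eif2s1, and within eIF2B from 0.09 for Eif2b4 to 0.50 for Eif2b1; within classes Eif2b4 was below 0 in 7 and Eif2s3x in 8 of 11.

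The genes of the start codon group were all above 0 in all kept cells, 9 of 9 with a median of 0.21. Eif1, which guards the choice of start codon, had 1187 CPM in the cKO library and 958 CPM in the WT library, a ratio of 0.31 (0.30 to 0.32). Eif1ad, an eIF1A-like protein, had 98.5 CPM in the cKO library and 75.8 CPM in the WT library, a ratio of 0.38 (0.35 to 0.40). These were the 2 genes of the group past 0.3, Eif1ad being counted in it as an eIF1A-like protein. The near paralogs Eif1b and Eif1ax had 0.21 and 0.26 and were above 0 in all 11 classes, as were Eif1 and Eif1ad. Eif1a, whose product is nearly the same protein as that of Eif1ax, had 0.22 and was above 0 in 7 classes. How 3′ reads that fit both genes of such a pair were counted was not checked. Eif5, which makes eIF2 hydrolyse its GTP, had 0.17, and Eif5b, which joins the ribosomal subunits, 0.15. Eif2a and Eif2d, which can place initiator tRNA in other ways, were closest to 0 at 0.08 and 0.07.

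Of the 14 genes of eIF3, the largest initiation factor and the platform on the small subunit, 13 were above 0, with a median of 0.16. The 2 past 0.3 were Eif3i, with 335 CPM in the cKO library and 243 CPM in the WT library, a ratio of 0.46 (0.45 to 0.48), and Eif3d, a subunit that can itself bind caps, with 235 CPM in the cKO library and 180.2 CPM in the WT library, a ratio of 0.39 (0.37 to 0.40). Eif3i, Eif3d, Eif3m, Eif3k and Eif3h were above 0 in all 11 classes, but called higher in 10 for Eif3i, 7 for Eif3d, 5 for Eif3k, 3 for Eif3m and 0 for Eif3h. Eif3a, the core scaffold of the complex, differed from these: it had 649.7 CPM in the cKO library and 645 CPM in the WT library, a ratio of 0.01, and was below 0 in 10 of 11 classes on total UMIs and in 6 with TMM scaling. Eif3j1 had −0.02 (−0.04 to −0.01) in all kept cells. Its close paralog Eif3j2 was counted at 4.29 CPM in the cKO and 3.72 CPM in the WT library. How reads that fit both of these genes were counted was not checked.

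The eIF4 group was the one without a common direction, 5 of 12 above 0 with a median of −0.01 on total UMIs and 0.09 with TMM scaling. Within it paralogs of eIF4A and of eIF4E differed in direction. Eif4a1, the main initiation helicase, had 564 CPM in the cKO library and 473 CPM in the WT library, a ratio of 0.25 (0.24 to 0.26). Eif4a2, its paralog, had 104 CPM in the cKO library and 123 CPM in the WT library, a ratio of −0.24 (−0.26 to −0.21). Eif4a1 was above 0 in all 11 classes and called higher in 1 of them. Eif4a2 was below 0 in 10 and called lower in 6, with stromal/endothelial-like cells at 0.0048. With TMM scaling Eif4a2 was again below 0 in 10 classes. Its ratios in HSC/MPP-like (−0.29) and monocyte-like cells (−0.23) were then short of −0.3. Eif4a3, the helicase of the exon junction complex, had 0.22.

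In HSC/MPP-like cells, for one, Eif4a1 had 513 CPM in cKO and 423 CPM in WT cells, and Eif4a2 107 CPM in cKO and 143 CPM in WT cells. The widest gap of Eif4a2 was in GMP/neutrophil progenitor-like cells, 72.9 CPM in cKO against 103 CPM in WT cells, a ratio of −0.50 (−0.58 to −0.43). Eif4a2 had its highest level in T/NK-like cells of either library, 184 CPM in cKO and 227 CPM in WT cells, while Eif4a1 was low there, at 267 CPM in cKO and 234 CPM in WT cells.

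Of the cap-binding paralogs, Eif4e, the general cap-binding factor, had 163 CPM in the cKO library and 157 CPM in the WT library, a ratio of 0.05 (0.03 to 0.07), with 6 classes above 0 and 5 below. Eif4e2, known as 4EHP and as a repressor of the mRNAs whose caps it holds, had 125 CPM in the cKO library and 93.4 CPM in the WT library, a ratio of 0.42 (0.40 to 0.44), and was above 0 in all 11 classes. Eif4e3, the remaining paralog, had the lowest ratio of all 53 genes, 7.33 CPM in the cKO library and 10.1 CPM in the WT library, −0.46 (−0.55 to −0.37). That value depended on the mix of cells: at the WT mix of clusters it was 0.045. In the 2 classes with its highest CPM it was near 0, 0.06 (−0.22 to 0.34) in conventional dendritic-like and −0.01 (−0.14 to 0.13) in monocyte-like cells.

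The scaffold genes were all below 0 on total UMIs. Eif4g1, the main eIF4G, had 324 CPM in the cKO library and 325 CPM in the WT library, a ratio of −0.01 (−0.02 to 0.01) over all cells. It was below 0 in each of the 11 classes, from −0.31 in basophil/mast-like to −0.03 in HSC/MPP-like cells; with TMM scaling it was below 0 in 9. Eif4g2, also called DAP5, a scaffold without the eIF4E site, had 446 CPM in the cKO library and 482 CPM in the WT library, a ratio of −0.11 (−0.12 to −0.10). Eif4g3 had 177 CPM in the cKO library and 215 CPM in the WT library, a ratio of −0.28 (−0.30 to −0.26). Eif4g2 and Eif4g3 were below 0 in 10 of 11 classes under both scalings, though each was called lower in 2, with megakaryocyte-like cells the exception for Eif4g2 and stromal/endothelial-like cells for Eif4g3. Of the accessory genes, Eif4b had −0.01, Eif4h 0.06, and Eif4enif1, which carries eIF4E into the nucleus and to processing bodies, −0.10 (−0.12 to −0.07).

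**Figure D2:**
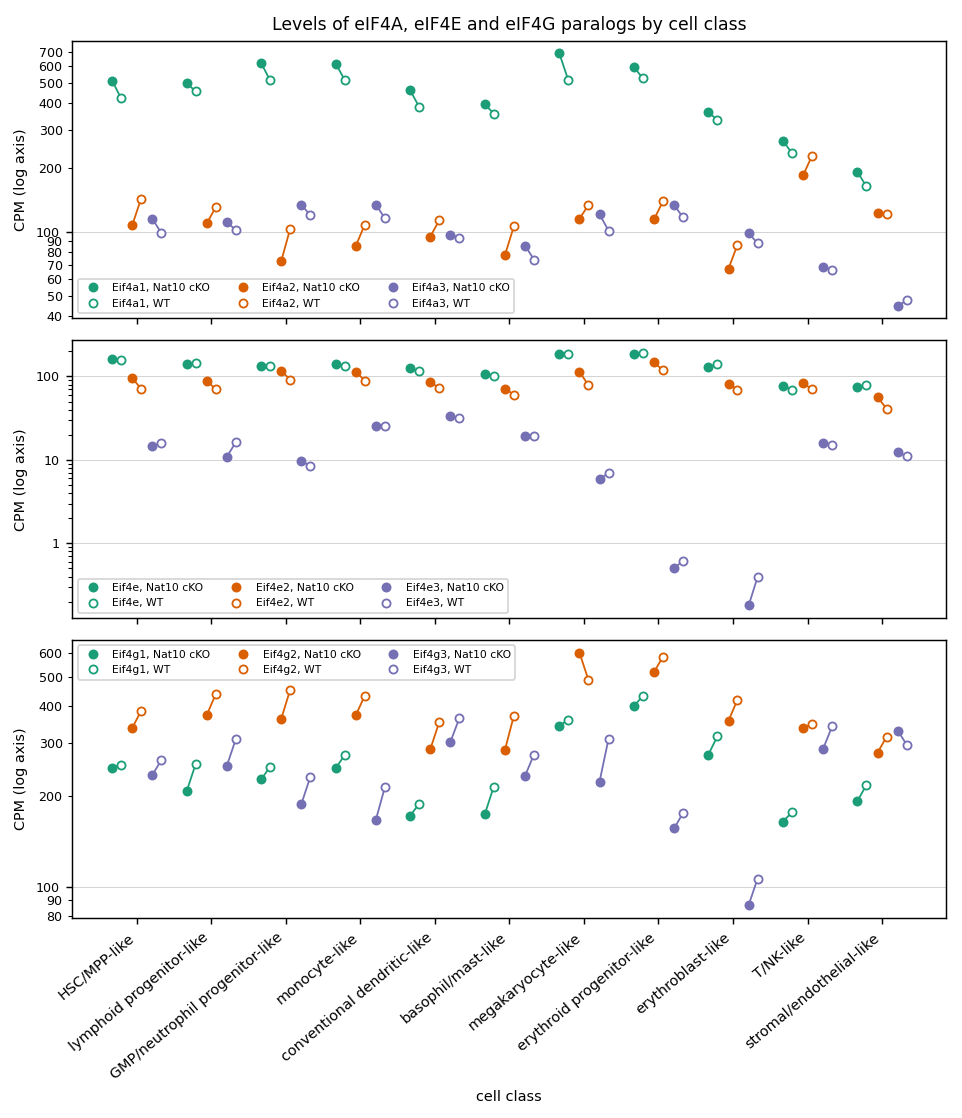
CPM (log axes) of the eIF4A, eIF4E and eIF4G paralogs in each cell class (x axis), Nat10 cKO filled and on the left of each pair, WT open and on the right, joined by a line; 1 library per genotype. Eif4a1 lies higher and Eif4a2 lower in cKO than in WT cells in nearly every class, and Eif4e3 falls under 1 CPM in both erythroid classes of both libraries.

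The paralog pairs of eIF4A and eIF5A differed in direction over all kept cells. The 250 bases before their annotated starts are therefore shown, from RefSeq on GRCm38.p6. Each copy of the E-box CACGTG, the motif bound by MYC and its relatives, is in capitals. The motif reads the same on both strands. The Eif4a1 stretch is chr11:69672424-69672673 on the minus strand and holds 1 copy, with 183 bases between it and the start. The Eif4a2 stretch is chr16:23107218-23107467 on the plus strand and holds none. The Eif5a stretch belongs to 1 of 6 annotated starts and was picked from the 3 that hold the motif. Its place is chr11:69921387-69921636 on the minus strand, with 1 copy and 68 bases between that copy and the start. The Eif5a2 stretch is chr3:28781027-28781276 on the plus strand with 2 copies.
Eif4a1: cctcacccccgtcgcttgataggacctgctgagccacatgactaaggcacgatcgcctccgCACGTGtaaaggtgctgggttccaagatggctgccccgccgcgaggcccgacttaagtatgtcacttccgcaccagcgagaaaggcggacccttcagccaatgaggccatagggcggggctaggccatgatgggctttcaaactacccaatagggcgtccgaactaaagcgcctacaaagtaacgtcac
Eif4a2: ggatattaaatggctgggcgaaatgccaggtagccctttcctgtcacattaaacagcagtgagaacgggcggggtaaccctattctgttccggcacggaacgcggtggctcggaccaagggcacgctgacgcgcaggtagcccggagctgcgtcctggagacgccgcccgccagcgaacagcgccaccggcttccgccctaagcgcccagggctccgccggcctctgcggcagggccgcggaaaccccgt
Eif5a: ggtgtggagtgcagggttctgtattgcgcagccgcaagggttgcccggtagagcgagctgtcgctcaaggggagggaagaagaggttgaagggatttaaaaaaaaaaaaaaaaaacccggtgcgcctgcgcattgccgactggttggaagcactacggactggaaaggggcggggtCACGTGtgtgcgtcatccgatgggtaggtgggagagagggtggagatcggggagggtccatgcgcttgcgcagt
Eif5a2: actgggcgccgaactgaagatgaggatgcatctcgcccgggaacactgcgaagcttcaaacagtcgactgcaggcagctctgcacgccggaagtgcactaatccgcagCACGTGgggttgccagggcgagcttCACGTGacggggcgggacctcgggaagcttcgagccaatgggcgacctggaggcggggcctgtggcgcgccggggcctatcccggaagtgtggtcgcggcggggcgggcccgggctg

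The stretches of Eif4a1 and Eif5a, higher in the cKO library, hold a copy, and so does that of Eif5a2, which was not higher. Of the 53 factors 42 were found in the RefSeq table, and 11 of these, 26.2%, held the motif in 250 bases before a start, against 6.86% of all 27025 symbols in the table. Those symbols were taken whether or not they were counted here, while the factors passed a floor of UMIs, so the sets are unlike. The ratio over all kept cells had a median of 0.14 in the 11 genes with the motif and 0.16 in the 31 without. A match of letters is a description and shows no bound factor.

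Within classes, most factors were above 0 in 10 of the 11. The highest and lowest factors named for a class are those among the factors with at least 100 UMIs in it. In HSC/MPP-like cells (637 cKO and 974 WT cells) 52 factors were measured with at least 50 UMIs, the median was 0.18, and 15 were called higher and 1 lower, 28.8% and 1.92%, against 14.4% and 31.6% of all features. The highest was Eif5a with 960.1 CPM in cKO and 591 CPM in WT cells, a ratio of 0.70 (0.67 to 0.73), followed by Eef1d at 0.56 and Eif6 at 0.56. Eif4a2, at −0.42, Eif4g2 at −0.19 and Eif4g3 at −0.16 were the lowest. The ratio of Eif5a was alike in the 2 clusters that make up the class, 0.69 and 0.72. Ribosomal protein genes took 21.3% of UMIs in cKO and 17.1% in WT cells of this class, and TMM scaling moved its ratios up by 0.124, with 26 factors called higher against 22.5% of all features so scaled and 0 lower against 21.5%.

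Eef1e1, Eef1d, Eif6 and Eif5a also supplied the 3 highest ratios of the GMP/neutrophil progenitor-like, monocyte-like and basophil/mast-like classes. In GMP/neutrophil progenitor-like cells the median was 0.12, with 13 of 53 called higher and 2 lower against 12.2% and 27.9% of all features, and Eef1e1 at 0.63, Eef1d at 0.60 and Eif6 at 0.53 were the highest. In monocyte-like cells the median was 0.12, with 13 of 53 higher and 2 lower against 11.1% and 28.0%. Eef1e1 at 0.64, Eef1d at 0.61 and Eif5a at 0.54 led there, and Eif4g3 was lowest at −0.36. In basophil/mast-like cells the median was 0.11, with 11 of 51 higher and 5 lower against 15.9% and 23.7%. Eif6 and Eif5a at 0.64 and Eef1d at 0.64 were highest, and Eif4a2 at −0.45, Eif3a at −0.39 and Eif4g2 at −0.38 lowest. The GMP/neutrophil progenitor-like cells held granule gene RNA at 22723 CPM in cKO and 29867 CPM in WT cells, and its part in these ratios was not tested.

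In conventional dendritic-like cells 19 of 51 factors were called higher and 0 lower, against 16.1% and 24.4% of all features, with a median of 0.20. Eif5a led with 777 CPM in cKO and 490.5 CPM in WT cells (0.66), followed by Eif2b1 at 0.55 and Eif2b3, another eIF2B subunit, at 0.52. Eif4g2 at −0.30, Eif4g3 at −0.26 and Eif4a2 at −0.25 were the lowest, each short of −0.3. The counts of this class depended on its bounds. At a finer clustering (Leiden resolution 2.5) 50 of its 298 cKO and 239 of its 559 WT cells kept the name, 75 cKO and 182 WT cells were named plasmacytoid dendritic-like, and 167 cKO and 117 WT cells monocyte-like. That smaller class, with fewer than 100 cKO cells, held 8 called higher and 5 lower of 50, against 18.7% and 29.5% of all features, with Eif2b1 at −0.23. With called doublets kept the class held 11 higher and 2 lower against 13.9% and 24.4%.

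Megakaryocyte-like cells (243 cKO and 221 WT cells) had the most factors called higher, 21 of 51 with 1 lower, but 22.7% and 32.8% of all features were past 0.3 there too. Eef1e1 had 57.9 CPM in cKO and 30.8 CPM in WT cells, a ratio of 0.91 (0.63 to 1.19). Eif5 had 474 CPM in cKO and 273 CPM in WT cells, a ratio of 0.79 (0.70 to 0.89), and Eif1 1398 CPM in cKO and 813 CPM in WT cells, a ratio of 0.78 (0.73 to 0.84). Eif5 and Eif1 were thus further above 0 in this class than in any other, where Eif5 reached at most 0.15 and Eif1 0.36. Eif4g3 was the lowest at −0.47. The median depth was 9828 UMIs in cKO and 22207 in WT cells of the class, whose 2 clusters differ in depth; at the WT mix of these clusters Eif5 was 0.79 and Eif1 0.74.

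Erythroid cells showed the smallest medians among the blood classes on total UMIs. With TMM scaling the smallest were 0.08 in T/NK-like and 0.10 in erythroblast-like cells. Erythroid progenitor-like cells, at 0.20, then lay above basophil/mast-like and lymphoid progenitor-like cells, both at 0.18. In erythroid progenitor-like cells the median was 0.09, with 5 of 53 called higher and 3 lower, 9.43% and 5.66% against 9.55% and 21.2% of all features, so the share of higher calls was about that of all features. Haemoglobin RNA stood at 2101 CPM in cKO and 3393 CPM in WT cells of this class, and its part in these ratios was not tested. Eif6 had 159 CPM in cKO and 114 CPM in WT cells, a ratio of 0.48 (0.44 to 0.51), followed by Eef1d at 0.42 and Eif5a at 0.38. Eif5a2 at −0.40, Eif4e3 at −0.30 and Eif4enif1 at −0.30 were lowest. With TMM scaling, which moved the ratios of this class up by 0.109, 14 were called higher and 0 lower, against 17.1% and 12.7% of all features so scaled. In erythroblast-like cells the median was 0.06, with 7 of 52 higher and 2 lower against 12.5% and 17.3%. Eif3j2 at 0.66 (0.16 to 1.15), Eif6 at 0.45 and Eif5a at 0.39 were highest, and Eif4a2 at −0.37, Eif4enif1 at −0.30 and Eif4g3 at −0.29 lowest.

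In lymphoid progenitor-like cells (115 cKO and 225 WT cells) the median was 0.12, with 10 of 51 higher and 2 lower against 14.3% and 25.3% of all features. Eif2d at 0.58 (0.07 to 1.07), Eef1e1 at 0.54 and Eif5a at 0.50 were highest, and Eif4e3 at −0.56 (−1.23 to 0.04), Eif4b at −0.32 and Eif4g1 at −0.30 lowest. In T/NK-like cells the median was 0.16, against 0.06 over all features. Of 49 factors 10 were called higher and 1 lower against 26.8% and 14.8%, so the share of higher calls was under that of all features. Eif2b5 at 0.78 (0.21 to 1.37), Eif5a at 0.48 and Eif3i at 0.45 were highest there among the factors with at least 100 UMIs, and Eif4a2 at −0.31, Eif4g3 at −0.25 and Eif2b4 at −0.25 lowest. With fewer UMIs, Eef1e1 had 0.82 (0.11 to 1.55) from 44 UMIs in cKO and 29 in WT cells.

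Stromal/endothelial-like cells (315 cKO and 142 WT cells) were the class with a median below 0, −0.03, with 4 of 49 called higher and 8 lower against 21.4% and 17.5% of all features. Eif3d at 0.54 (0.07 to 1.06), Eif4e2 at 0.44 (−0.03 to 0.95) and Eif6 at 0.35 (−0.16 to 0.90) were highest among the factors with at least 100 UMIs. Eif1a at −0.61 (−1.09 to −0.13), Eif4b at −0.61 (−0.98 to −0.24) and Eif3l, an eIF3 subunit, at −0.53 were lowest among them. With fewer UMIs, Eif2d had 0.70 (−0.18 to 1.73) and Eif2b2 −0.54 (−1.36 to 0.30). Ribosomal protein genes took 5.21% of UMIs in cKO and 5.63% in WT cells here, the one class of 11 in which that share was not higher in cKO cells.

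**Figure D3:**
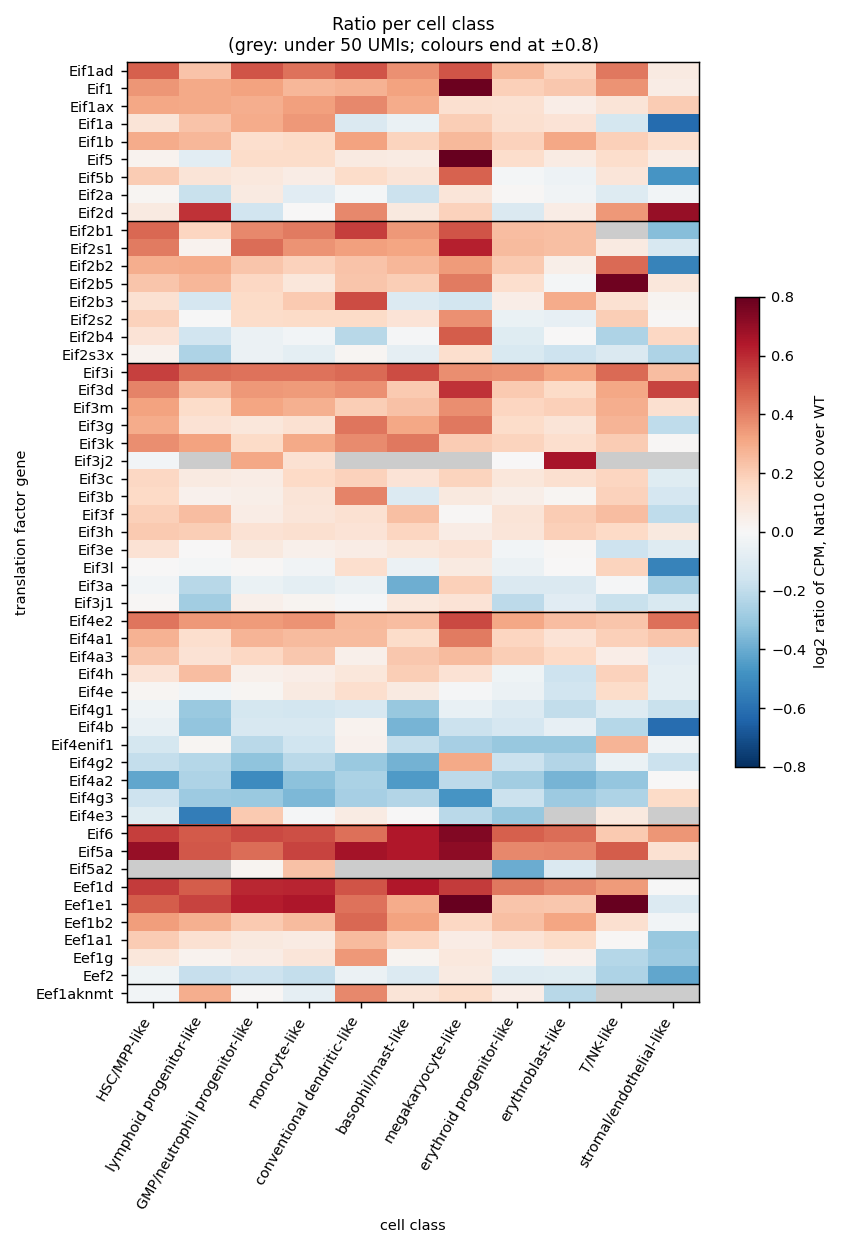
Log2 ratio of CPM, Nat10 cKO over WT (colour, red higher and blue lower in cKO), for each translation factor gene (rows, grouped by role) in each cell class (columns); grey cells had under 50 UMIs. Eif3i, Eif4e2, Eif6 and Eif5a form red rows through all classes, Eif4g1 a row on the blue side, and the stromal/endothelial-like column is paler or blue where the other columns are red.

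Counting over classes, 48 factors were measured in all 11. By sign alone, 13 of these were above 0 in every class: Eif6, Eif5a, Eif3i, Eif4e2, Eif3d, Eif1ad, Eif1, Eif3m, Eif1ax, Eif4a1, Eif3k, Eif1b and Eif3h. A further 12 were above 0 in 10 classes, and for 10 of these the exception was the stromal/endothelial-like class. Eif4g1 was below 0 in every class, and Eif3a, Eif4b, Eef2, Eif4g2, Eif4a2 and Eif4g3 in 10. With TMM scaling the counts were 14 above 0 in every class and 10 in 10 classes, 0 below 0 in every class, and 3 below 0 in 10 classes, which were Eif4a2, Eif4g2 and Eif4g3. The classes come from the same 2 libraries and are not replicates of each other. Such counts were not made over all features, so they cannot set the factors apart from other genes.

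Within each library the levels of the factors differed by cell type. Erythroid progenitor-like cells had the highest CPM of the 11 classes for 27 of 53 factors in the cKO and 38 in the WT library, and stromal/endothelial-like cells the lowest for 41 in the cKO and 35 in the WT library. In the cKO library 9 factors were highest in megakaryocyte-like cells, and in the WT library 0 were. The highest class was the same in both libraries for 38 factors and the lowest for 39. Over the factors, the order of the 11 classes by CPM gave Spearman correlations between the libraries from 0.609 to 0.991. Their median was 0.936, and both orders rest on classes named jointly. None of these counts or correlations was taken over all features, so they cannot set the factors apart from other genes.

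The factors with the widest and the narrowest ranges of CPM over classes were as follows. They were ranked by the fold of highest over lowest class, taking the smaller value of the 2 libraries. Eif4e3 had the widest: 33.3 CPM in conventional dendritic-like and 0.180 CPM in erythroblast-like cells of the cKO library, a fold of 185 (50.4 to 1539). In the WT library the same classes had 31.9 CPM and 0.395 CPM, a fold of 80.9 (42.0 to 179). The erythroblast-like values rest on 2 UMIs in the cKO and 9 in the WT library. Eif5a2 was highest in erythroblast-like cells in both libraries, at 7.93 CPM in the cKO and 8.601 CPM in the WT library, and lowest in GMP/neutrophil progenitor-like cells, at 0.807 CPM in the cKO and 0.797 CPM in the WT library. So the class with the most Eif5a2 was not the class with the most Eif5a, which reached 1361 CPM in GMP/neutrophil progenitor-like cells of the cKO and 999.9 CPM in those of the WT library. Eif3j2, the next in width, ran from 5.68 CPM in erythroblast-like to 0.754 CPM in lymphoid progenitor-like cells of the cKO library, the lower value resting on 2 UMIs.

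By the same ranking the narrowest ranges belonged to Eif4g2, Eif5 and Eif2a. Eif5 varied by a fold of 2.94 in the cKO and 2.15 in the WT library. In the cKO library other factors were narrower than Eif5, such as Eif2d with a fold of 2.37. Eif4g2 was highest in megakaryocyte-like cells of the cKO library (602 CPM) and in erythroid progenitor-like cells of the WT library (583 CPM), and lowest in stromal/endothelial-like cells of both, with a fold of highest over lowest of 2.15 in the cKO and 1.85 in the WT library. Eif2a, from erythroid progenitor-like to stromal/endothelial-like cells, varied by a fold of 2.30 in the cKO and 2.26 in the WT library. Eef1a1 was highest in HSC/MPP-like cells of the cKO library (4427 CPM) and in erythroid progenitor-like cells of the WT library (3960.2 CPM).

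**Figure D4:**
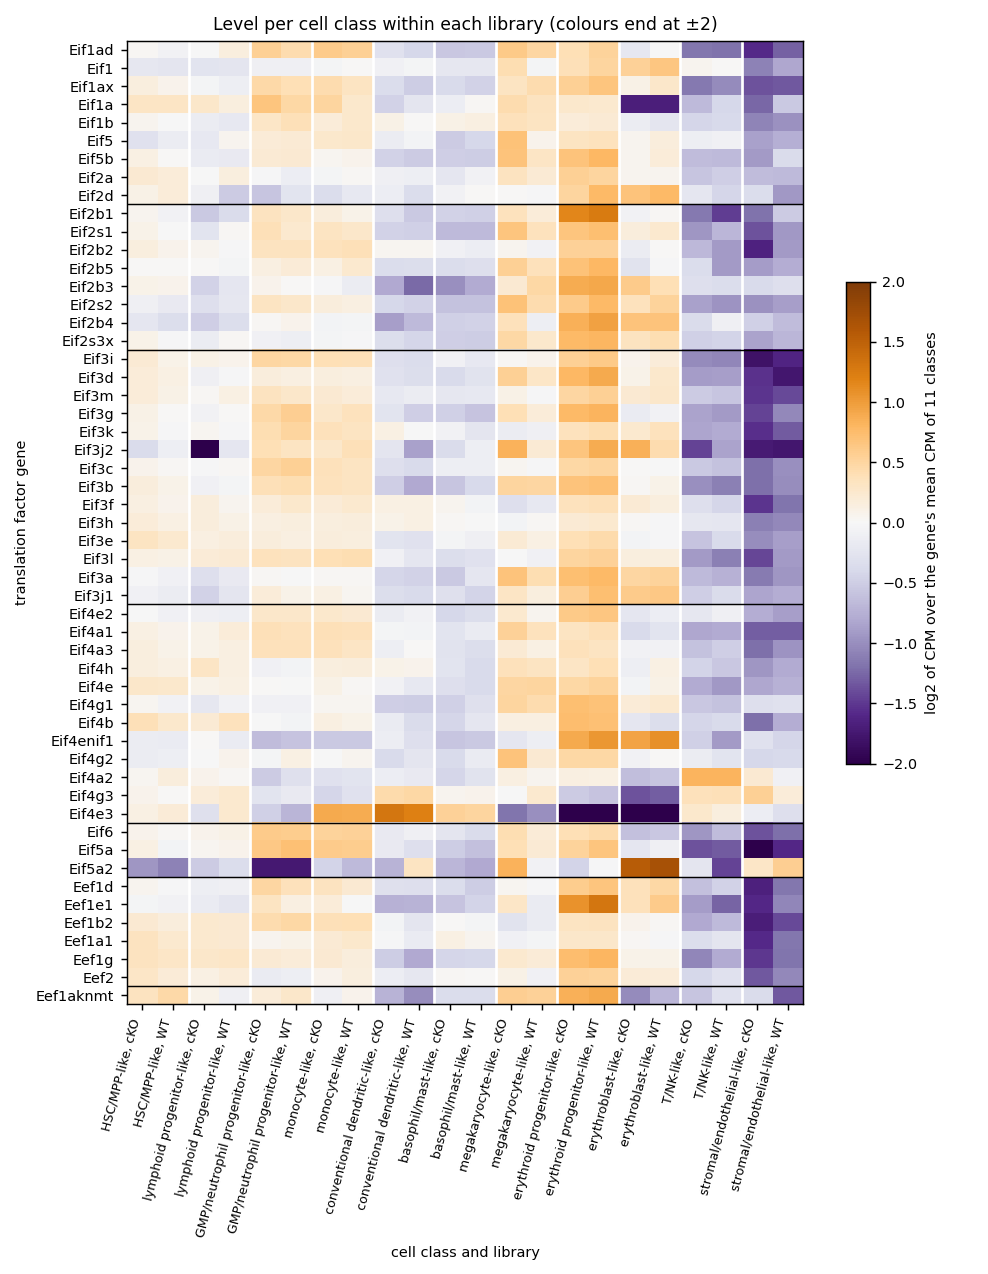
Log2 of each factor's CPM in a class over its mean CPM of the 11 classes of that library (colour), for the factor genes (rows) in each class (columns, Nat10 cKO left of WT). The paired columns look alike, erythroid progenitor-like columns are orange for most rows, stromal/endothelial-like columns purple, and Eif4e3 and Eif5a2 stand out by their contrast.

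The ratio went with the span of the gene in the genome, though little in stromal/endothelial-like cells. Over all kept cells the Spearman correlation of span and log2 ratio was −0.45 over the 53 factors and −0.14 over 20391 features with a span in GENCODE vM21; factors share the libraries and are not independent points. Factors under the median span of 16425 bases had a median ratio of 0.26, and the others 0.07. Eif4g3 has the longest span of the group and a ratio of −0.28, but Eif4a2 and Eef2, 2 of the short genes, were also below 0. In HSC/MPP-like cells the correlation was −0.40 over the factors and −0.33 over all features. The same values were −0.49 and −0.25 in erythroid progenitor-like cells and −0.34 and −0.35 in conventional dendritic-like cells. In stromal/endothelial-like cells they were −0.11 and −0.01.

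**Figure D5:**
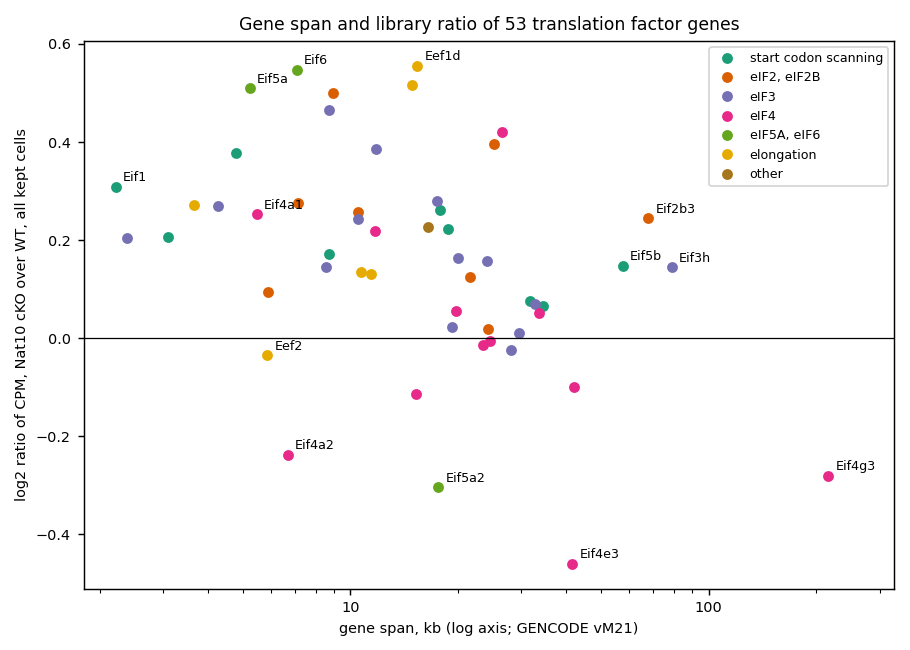
Log2 ratio of CPM, Nat10 cKO over WT in all kept cells (y axis), against gene span in kb (log x axis) for the 53 translation factor genes, coloured by role. Genes of long span lie lower on the whole, while the short Eif4a2 and Eef2 lie below 0.

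Genes that act on the factors, listed separately, did not all go with them. Of 20 regulators of initiation 19 were measured in all kept cells, 3 above 0 and 16 below, with a median of −0.14, near that of all features. Eif4ebp1, which binds eIF4E and keeps it from eIF4G, was the highest of them with 159 CPM in the cKO library and 108 CPM in the WT library, a ratio of 0.56 (0.54 to 0.58), and Paip2 was next at 0.09. Pdcd4, an inhibitor of eIF4A, was lowest with 225 CPM in the cKO library and 289 CPM in the WT library, a ratio of −0.36 (−0.38 to −0.35), and Ppp1r15b, which directs the removal of phosphate from eIF2 alpha, had −0.30. Eif4ebp1 was thus the one regulator called higher and Pdcd4 the one called lower.

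The enzymes that modify eIF5A and eEF2 were mostly above 0, 7 of 8 with a median of 0.27. Dohh, the second enzyme of hypusine synthesis, had 56.4 CPM in the cKO library and 37.8 CPM in the WT library, a ratio of 0.58 (0.54 to 0.61), while Dph3, needed to make the diphthamide of eEF2, had 0.44, and Dph2 and Dph6 were lowest at 0.02 and −0.08. Dhps, the first hypusine enzyme, had 36.6 CPM in the cKO library and 27.9 CPM in the WT library, a ratio of 0.39. All 9 mitochondrial translation factors were above 0, with a median of 0.21, from Tsfm at 0.60 and Mtif3 at 0.39 to Mtrf1l at 0.05 and Gfm2 at 0.04. Of 8 termination and recycling genes 5 were above 0, with a median of 0.11; Pelo at 0.36 and Denr at 0.29 were highest, Etf1 had −0.12, and Gspt2, a paralog of the release factor Gspt1, was lowest with 2.48 CPM in the cKO library and 4.72 CPM in the WT library, a ratio of −0.93.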

How the data were processed

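Lineage-negative bone marrow cells were measured by 3′ single-cell RNA sequencing in 1 Nat10 cKO and 1 WT library, grouped by the genotype label. The deposited values are raw UMI counts per gene and barcode; per the submitters' processing notes the authors used Cell Ranger 7.1.0 and mm39. The cell calling step is not stated there. The members and lists were chosen with earlier results of these data known.

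Kept barcodes had at least 1000 UMIs, 500 genes and no more than 10% mitochondrial UMIs, 11239 of 13479 in the cKO and 12537 of 15848 in the WT library. Scrublet (scanpy 1.11.5, expected share 8%) called 544 cKO (4.84%) and 592 WT barcodes (4.72%) doublets, which were removed. Both libraries were clustered together (2000 variable genes, 30 components, 15 neighbours, Leiden resolution 1.5). Clusters were named from marker lists, with at least 3 markers detected at a fold of 2; a cluster with no marker among its 10 leading genes needed 4, which was decided with the clusters in view. Counts were summed per class and scaled to CPM, and log2 ratios taken with 0.5 added to each sum, with exact conditional binomial 95% intervals that cover counting error only (scipy 1.17.1). No test between genotypes was possible. Factors needed 50 UMIs in a class to be measured there. Named factors are the 10 highest and 10 lowest ratios over all cells, the 3 highest and 3 lowest of each class among those with at least 100 UMIs, the 3 widest and 3 narrowest over classes, paralogs, and the 2 highest and 2 lowest of each related list; Dhps, Eif2b5 and others named for their role were added after values were seen. TMM factors came from edgeR 4.0.16 (R 4.3.3) as an alternative scaling. The scripts were tested on simulated counts. Gene spans came from GENCODE vM21, found for all 53 factors and 91.8% of features, and promoter sequence from RefSeq, both on GRCm38; only spans, names and sequences were taken from them, not coordinates to join with the mm39 counts.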

Additional observations from a re-analysis of the deposited data

Results flagged for a closer look

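Of the 53 factors 5 were past 0.3 in one class and past −0.3 in another, which drew attention to them. The share of all features with such a pair of classes is not given, so the count cannot set the factors apart from other genes. The classes named are those with the highest and the lowest ratio of each factor. The differences between classes were not tested. Eif2b1 had a log2 ratio of 0.55 (0.22 to 0.88) in conventional dendritic-like and −0.34 (−1.14 to 0.50) in stromal/endothelial-like cells, and both turned under an alternative, to −0.23 at Leiden resolution 2.5 and 0.32 with every cell weighing alike. Eif2b2 had 0.45 (−0.18 to 1.10) in T/NK-like and −0.54 (−1.36 to 0.30) in stromal/endothelial-like cells, both intervals holding 0. Eif1a had 0.35 (0.28 to 0.41) in monocyte-like and −0.61 (−1.09 to −0.13) in stromal/endothelial-like cells. Eif5b had 0.47 (0.37 to 0.57) in megakaryocyte-like and −0.47 (−0.74 to −0.21) in stromal/endothelial-like cells. Eif4g2 had 0.30 (0.23 to 0.37) in megakaryocyte-like and −0.38 (−0.47 to −0.28) in basophil/mast-like cells. Stromal/endothelial-like cells were the low side for 4 of the 5, the class with the fewest UMIs in the WT library, 1262580.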

How the results depend on the processing

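Each value rests on 1 library per genotype, and rare factors such as Eif5a2 and Eif4e3 on few UMIs in most classes. Of 4109 ratios of single factors under the alternatives 3516 stayed within their counting interval. Among the 3516 are 514 from the floor of 500 UMIs, which leaves each ratio as it was, so these could not move. Over all 4109 ratios 231 changed sign, of which 222 had been short of 0.3 and 9 past it. Over all kept cells 17 values of 13 factors changed sign. With TMM scaling Eif4g1, Eif4b, Eif3j1 and Eef2 did, all above 0 then. With every cell weighing alike Eif4e, Eif3l, Eif2s3x and Eif3a were below 0, and at the WT mix of clusters these 4 with Eif2b4, Eif2a, Eif3e and Eif2d. No paired analysis was possible because each genotype had 1 library. No library could be left out. Over all cells a floor of 500 UMIs left the same 53 factors, while a floor of 1 UMI in the symbol rule would add 7 rows. No lymphoid progenitor-like class was named at Leiden resolution 2.5, so its values were not computed there.

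The 9 ratios past 0.3 that changed sign were as follows. Eif4e3 was 0.045 over all cells at the WT mix of clusters. With every cell weighing alike, Eif2s1 was −0.10 and Eif1ad −0.10 in basophil/mast-like cells, Eif2b5 −0.00308 in megakaryocyte-like cells, and Eif2b1 0.32 and Eif2d −0.11 in stromal/endothelial-like cells. At Leiden resolution 2.5, where the conventional dendritic-like class held 50 cKO and 247 WT cells and others of its cells were named plasmacytoid dendritic-like or monocyte-like, Eif2b1 was −0.23, Eif3i −0.12 and Eif1ax −0.41 in it.

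Counts moved over 1.5 times, and medians past their limits, as follows. With TMM scaling the median over all cells was 0.26, with 25 factors called higher and 1 lower. In classes TMM gave 26 higher and 0 lower in HSC/MPP-like, 6 and 6 in T/NK-like, 14 and 0 in erythroid progenitor-like, 18 and 1 in lymphoid progenitor-like and 20 and 0 in monocyte-like cells. Over the classes at most 28.0% of all features were then called higher, and 12.7% to 26.8% lower; in T/NK-like cells it was 21.0% and 20.8%. TMM gave 17 higher in basophil/mast-like cells, and 1 lower in GMP/neutrophil progenitor-like and in erythroblast-like cells. For the counts with every cell weighing alike, which follow, no share of all features is given. Those counts therefore cannot set the factors apart from other genes. With every cell weighing alike the median over all cells was 0.18 with 1 lower, and the lower calls were 5 in GMP/neutrophil progenitor-like, 2 in T/NK-like, 10 in basophil/mast-like, 1 in conventional dendritic-like, 1 in erythroid progenitor-like, 4 in lymphoid progenitor-like and 5 in megakaryocyte-like cells; 13 were higher in stromal/endothelial-like cells.

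At the WT mix of clusters the median over all cells was 0.10, with 7 higher and 1 lower, and the calls were 5 higher and 4 lower in lymphoid progenitor-like cells, and 1 lower in erythroblast-like, 1 in erythroid progenitor-like and 5 in stromal/endothelial-like cells. With the stricter cell filter 1 was lower over all cells, 0 in T/NK-like, 1 in conventional dendritic-like and 1 in erythroblast-like cells, and 2 were higher in stromal/endothelial-like cells. With doublets kept 11 were higher and 2 lower in conventional dendritic-like cells and 0 lower in T/NK-like cells. At Leiden resolution 2.5 the calls were 8 higher and 5 lower in conventional dendritic-like cells, and 0 lower in monocyte-like and 13 lower in stromal/endothelial-like cells. With a floor of 500 UMIs, which leaves fewer factors, 3 were higher in T/NK-like cells, 1 was lower in erythroid progenitor-like and in lymphoid progenitor-like cells, and 0 were higher and 2 lower in stromal/endothelial-like cells. For the other changes the cause was not tested. The share of all features is given above for all cells at the WT mix of clusters. It is also given there for conventional dendritic-like cells with doublets kept and at the finer clustering. For the other counts of calls in this paragraph no such share is given, so they cannot set the factors apart from other genes. Counts of the highest class per library stayed at 30 and 27 in the cKO and 38 and 38 in the WT library with every cell weighing alike and with doublets kept.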

Other observations

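An unnamed cluster of 386 cKO and 353 WT cells, led by Aspn, Agtr1a and Ecm2, genes of mesenchymal cells, held 50 measured factors, of which 14 were above 0, 3 were called higher and 11 lower against 20.7% and 11.6% of all features, with a median of −0.12 against 0.06 over all features. In it Eif5a had a log2 ratio of −0.21 and Eef1a1 of −0.43, while Eif4g3 had 0.33 and Eif4a2 0.19, values chosen after they were seen. Pseudogene rows left out by the symbol rule held 1392 UMIs in 13 rows over both libraries, and 840 of these were in Eif4a-ps4.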
